A study of Danio rerio with 24 samples.

Results

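Zebrafish embryos exposed to tetrabromobisphenol A (TBBPA), a brominated flame retardant, were compared with vehicle embryos at 4.5 hours post fertilization (hpf), a late blastula stage. The comparison covers the 12324 genes, of 31901 in the table, that reached 1 FPKM in at least 4 of the 8 libraries compared. FPKM is reads per kilobase of gene, divided by an effective library size. All embryos were wildtype and were kept from 0.75 hpf in 0.1% dimethyl sulfoxide (DMSO), alone in the DMSO group and with 40 µM TBBPA in the TBBPA group. Total RNA of whole embryos was sequenced from 4 samples a group, and the series of 24 libraries also holds both treatments at 2 and 3.5 hpf. Its title names zygotic transcription and histone acetylation as the subject, and this comparison asks which transcripts differed after exposure across the start of zygotic transcription. No label ties replicates to clutches or separate exposures, and p-values therefore cover only the spread among these samples, which may be technical.

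A fish embryo first lives on RNA that the mother stored in the egg. During the blastula stage it clears a large part of that store and switches on its own genome, with Nanog, Pou5f3 and Sox19b as the maternal transcription factors that open it. The cells then take on their first identities: the enveloping layer, a flat outer epithelium, the yolk syncytial layer beneath, and the fields that become mesoderm, endoderm and neurectoderm. In RNA from whole embryos, fewer cells of a type and less RNA per cell cannot be told apart.

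Most of the transcriptome differed between the groups, mostly by modest amounts. Limma, which fits a linear model to each gene and moderates its variance, called 8392 of 12324 genes (68.1%) at an adjusted p under 0.05. Of these, 4075 (33.1%) were higher in TBBPA and 4317 (35.0%) lower, and for 7808 genes (63.4%) the 4 TBBPA values lay wholly above or below the 4 DMSO values. Differences are TBBPA minus DMSO of log2(FPKM+1), a scale that pulls genes near or under 1 FPKM toward 0. The median over all genes was −0.02. Among called genes 5136 (61.2%) differed by less than 1.5-fold. Large differences ran mainly downward: 540 genes (4.38%) were higher by over 2-fold against 916 (7.43%) lower, 15 against 195 passed 4-fold, and 0 against 27 passed 8-fold. The effective library size behind FPKM was below the assigned reads in every DMSO library and above them in every TBBPA library. For replicate 1 it was 19040300 against 20018379 reads in DMSO and 18463800 against 17689370 in TBBPA. Summed FPKM was 417910 ± 5817 in DMSO and 369820 ± 2193 in TBBPA. In 2 other scalings of the libraries, TPM and the total of assigned reads, all genes shifted upward by a median of 0.17 and 0.13 on the log2 scale. The split of higher against lower calls was then 5379 to 2793 and 5091 to 3049, so small differences keep their direction only relative to that shift. Where TPM scaling moved the split within a gene list by over 10 percentage points, its counts follow the others, higher genes first. Members with at least 1 FPKM in all 4 DMSO but not all 4 TBBPA libraries (797 genes) are described as past the filter through DMSO alone. Some of them also reached 1 FPKM in some TBBPA libraries. Their selection makes such members lean lower. Members past it through TBBPA alone, defined the other way (546 genes), lean higher for the same reason. Both numbers are given where they made up 10% of a list or more.

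The 8 libraries held 11043694 to 20018379 assigned reads, and the groups overlapped in depth (11043694 to 20018379 reads in DMSO and 14323604 to 17689370 in TBBPA, n = 4 each; exact permutation p = 0.971, 2-sided). The first principal component carried 84.7% of the variance and separated the groups, with DMSO libraries from −45.4 to −32.4 and TBBPA libraries from 32.4 to 41.2. Correlations between libraries were 0.989 to 0.993 within groups and 0.909 to 0.943 between them. Reads from the mitochondrial genome took 2.47% ± 0.060 in DMSO and 1.85% ± 0.12 in TBBPA (exact permutation p = 0.0286, the smallest that 4 against 4 allows), and their part in other differences was not tested. Of 45 markers of cell types that form later, 4 were tested and 8 were listed at 0 in all libraries. Their summed level was 24.1 to 28.7 FPKM in the DMSO libraries and 14.7 to 16.8 in the TBBPA libraries.

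The level of a transcript at 2 hpf, before zygotic transcription, sorted the differences at 4.5 hpf. Of 1172 genes with a mean under 0.5 FPKM at 2 hpf, 894 were lower in TBBPA, 636 of them by over 2-fold, and 44 were higher, with a median log2 difference of −1.08. Of these genes, 577 had at least 1 FPKM in all DMSO but not all TBBPA libraries, and 32 the reverse. The 474 with at least 1 FPKM in all 8 libraries were therefore counted separately: 352 were lower and 25 higher, with a median of −1.14. Genes at 2 to 20 FPKM at 2 hpf leaned the other way, with 2189 higher and 1358 lower of 5649 and a median of 0.08. At 20 FPKM and above, 1530 of 3804 genes were higher and 1626 lower, and the large differences there were 281 higher against 24 lower by over 2-fold. With TPM scaling the class of 2 to 20 FPKM gave 2856 higher and 701 lower and that of 20 FPKM and above 1989 and 898, while the class under 0.5 FPKM gave 70 and 860. Levels at 2 hpf come from a table scaled on its own and only sort the genes here.

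Measured per library, genes with under 0.5 FPKM at 2 hpf took 3.57%, 3.48%, 3.71% and 3.92% of summed FPKM in DMSO and 1.58%, 1.59%, 1.80% and 1.84% in TBBPA. The groups did not overlap (exact permutation p = 0.0286, adjusted p = 0.0324 over 17 library-level measures, 2-sided). A DMSO library held 1312 to 1456 of these genes at 1 FPKM or more, and a TBBPA library 726 to 843. Over all genes, 12248 ± 32 reached 1 FPKM in DMSO and 11899 ± 49 in TBBPA.

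**Figure D1:**
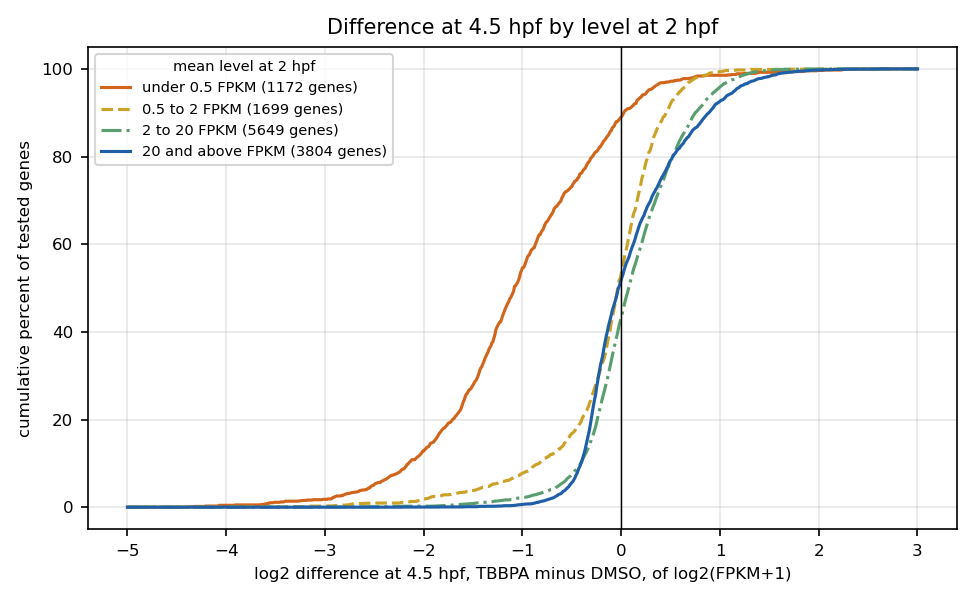
Cumulative percent of tested genes (vertical axis) by log2 difference, TBBPA minus DMSO, at 4.5 hpf (horizontal axis), in 4 classes of mean FPKM at 2 hpf, 1 line each. The line of the 1172 genes under 0.5 FPKM lies far to the left, with a median of −1.08, and the line of the 5649 genes at 2 to 20 FPKM crosses its middle at 0.08.

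The largest falls were in the outer epithelium. Of 21 tested markers of the enveloping layer, 20 were lower and 1 higher, with a median log2 difference of −2.35, and 9 of the 21 passed the filter through DMSO alone. Keratins, the intermediate filament proteins of this layer, gave 6 lower of 6 tested, 3 of which passed the filter through DMSO alone. The keratin gene krt92 lay at 21.6, 19.04, 23.5 and 35.5 FPKM in the DMSO libraries and 0.244, 0.237, 0.195 and 0.182 FPKM in the TBBPA libraries. Krt4 (ENSDARG00000017624, chromosome 6, 39308498 to 39313027; the genome build is not given here) lay at 20.6, 21.2, 23.8 and 28.8 FPKM in the DMSO libraries and 0.417, 0.219, 0.4204 and 0.783 FPKM in the TBBPA libraries. No TBBPA library of either keratin reached 1 FPKM, so both passed the filter through DMSO alone. Their choice among the largest falls also required groups that did not overlap.

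The transcription factor gene grhl3, which drives epidermal differentiation, lay at 73.7, 75.8, 84.9 and 79.4 FPKM in the DMSO libraries and 13.8, 11.5, 17.1 and 16.5 FPKM in the TBBPA libraries (log2 difference −2.35, SE 0.11, adjusted p = 8.42e-08). Krt8 was 55.8 ± 17 FPKM in DMSO and 7.43 ± 2.2 in TBBPA (log2 difference −2.75, SE 0.22, adjusted p = 2.26e-06). Foxi1, a regulator of ectodermal cells that also sits on the list, went the other way, at 18.2 ± 2.3 FPKM in DMSO and 39.5 ± 4.0 in TBBPA (log2 difference 1.08, SE 0.094, adjusted p = 3.65e-06). Cdh1, the maternally supplied E-cadherin of all blastula cells, was close in both groups, at 110, 107, 112 and 111 FPKM in the DMSO libraries and 106, 105, 101 and 101 FPKM in the TBBPA libraries, and its log2 difference of −0.09 passed the test but turned positive in both other scalings and did not pass without DMSO replicate 3 or without TBBPA replicate 3 or 4. Summed over the 28 marker genes in the table, the level was 708 to 899 FPKM in the DMSO libraries and 257 to 284 in the TBBPA libraries.

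Claudins, the strand proteins of tight junctions, split by member. Cldne (ENSDARG00000043128, chromosome 15, 2638884 to 2640966) lay at 103, 101, 105 and 128 FPKM in the DMSO libraries and 3.82, 3.73, 6.63 and 5.92 FPKM in the TBBPA libraries (log2 difference −4.22, SE 0.15, adjusted p = 4.82e-08). Cldnb fell too, with 40.6 ± 5.9 FPKM in DMSO and 1.52 ± 0.77 in TBBPA (−4.08). The most abundant members were higher in TBBPA: cldnd lay at 536, 566, 507 and 466 FPKM in the DMSO libraries and 1008, 1030, 978 and 906 FPKM in the TBBPA libraries (log2 difference 0.92, SE 0.059, adjusted p = 5.46e-07), and cldng at 297 ± 28 FPKM in DMSO and 668 ± 46 in TBBPA (log2 difference 1.17, SE 0.069, adjusted p = 3.18e-07). At 2 hpf, cldnd was already at 2123 FPKM and cldng at 841, while cldne was at 0.0128 and cldnb at 0.0425. Of 11 tested claudins, 4 of them past the filter through DMSO alone, 3 were higher and 7 lower, and their share of summed FPKM was 0.264% ± 0.015 in DMSO and 0.479% ± 0.027 in TBBPA.

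Other junction genes were lower too, by smaller counts under another scaling. On the list of adhesion and junctions, 3 were higher and 16 lower of 23 tested (6 and 10 with TPM scaling), with a median log2 difference of −0.28, and 3 passed the filter through DMSO alone. Alcamb, a cell adhesion molecule of the immunoglobulin family, lay at 14.7, 14.1, 17.9 and 23.2 FPKM in the DMSO libraries and 0.229, 0.505, 0.548 and 0.746 FPKM in the TBBPA libraries (log2 difference −3.60, SE 0.16, adjusted p = 7.40e-08). The β-catenin gene ctnnb2, whose product anchors cadherins and carries the Wnt signal, was 571 ± 12 FPKM in DMSO and 468 ± 6.5 in TBBPA, a log2 difference of −0.29. Oclnb, an occludin of tight junctions, lay at 98.2 ± 2.9 FPKM in DMSO and 97.4 ± 2.2 in TBBPA and did not pass (adjusted p = 0.76), except as higher in both other scalings.

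Several of the other largest falls encode proteins with no role in early patterning on the lists. Spaca4l lay at 31.03, 28.6, 31.4 and 39.9 FPKM in the DMSO libraries and 0.697, 0.453, 0.694 and 0.843 FPKM in the TBBPA libraries. Stm, which encodes the otolith matrix protein Starmaker, was 115 ± 23 FPKM in DMSO and 8.62 ± 2.9 in TBBPA (log2 difference −3.63, SE 0.20, adjusted p = 2.40e-07). The protease gene capn9 was 14.9 ± 3.6 FPKM in DMSO and 0.315 ± 0.22 in TBBPA and the carbonic anhydrase gene ca9 24.98 ± 2.3 FPKM in DMSO and 1.39 ± 0.46 in TBBPA, with log2 differences of −3.59 and −3.46. Gna15.1, a G protein α subunit, was 12.5 ± 4.3 FPKM in DMSO and 0.141 ± 0.057 in TBBPA (−3.51), and the MORC family gene morc3b 30.3 ± 5.3 FPKM in DMSO and 1.93 ± 0.52 in TBBPA (−3.41). The groups did not overlap, which the choice of these genes required.

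**Figure D2:**
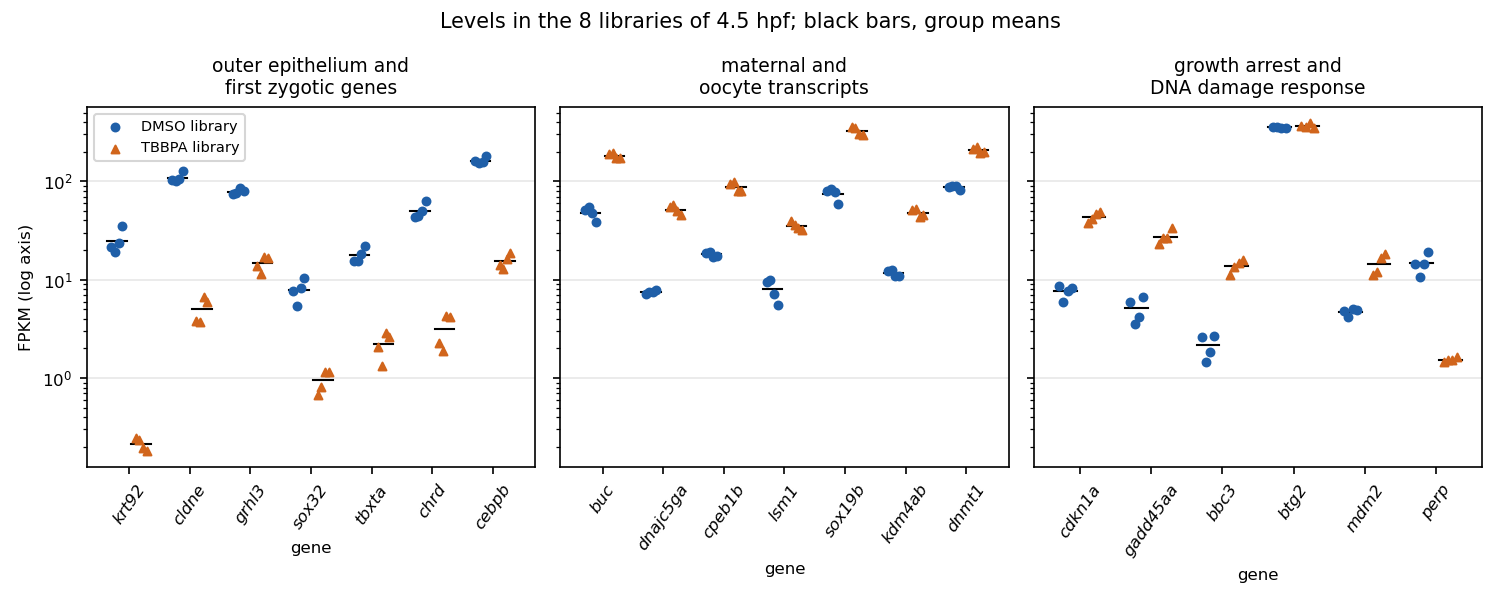
FPKM on a log axis (vertical) in each of the 4 DMSO libraries (circles) and 4 TBBPA libraries (triangles) for 20 genes (horizontal), with group means as black bars. The genes drawn are examples. The epithelial and other early zygotic genes drawn lie lower in every TBBPA library and the maternal transcripts drawn lie higher. Other maternal transcripts, such as nanog and pou5f3, were lower, and the whole oocyte list gave 25 higher and 13 lower of 55 tested. Of the growth arrest and DNA damage genes, btg2 overlaps between the groups and perp lies lower.

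Markers of the inner germ layers were lower as well. In comparison, 35.0% of all tested genes were lower, and 76.3% of those under 0.5 FPKM at 2 hpf, with a median of −1.08. The same shares stand beside the lists of germ layers, body axes and signaling pathways below. For endoderm 0 were higher and 7 lower of 7 tested, with a median log2 difference of −2.17, and 3 passed the filter through DMSO alone. Sox32, the factor that commits cells to endoderm, lay at 7.698, 5.42, 8.14 and 10.5 FPKM in the DMSO libraries and 0.679, 0.818, 1.15 and 1.15 FPKM in the TBBPA libraries (log2 difference −2.17, SE 0.17, adjusted p = 1.47e-06). The highest TBBPA library stayed under the lowest DMSO library. Gata6, a zinc finger factor of endoderm and the yolk syncytial layer, was 16.5 ± 5.8 FPKM in DMSO and 1.53 ± 0.74 in TBBPA (log2 difference −2.79, SE 0.26, adjusted p = 5.21e-06), and the chemokine receptor gene cxcr4a 153 ± 7.4 FPKM in DMSO and 40.01 ± 4.2 in TBBPA (−1.92). The summed level of the 13 endoderm genes was 242 to 305 FPKM in the DMSO libraries and 56.2 to 64.8 in the TBBPA libraries.

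In the yolk syncytial layer 1 was higher and 8 lower of 10 tested, with a median log2 difference of −1.44, and 3 passed the filter through DMSO alone. Apoeb, an apolipoprotein gene made there, lay at 264, 266, 277 and 338 FPKM in the DMSO libraries and 79.9, 91.6, 121 and 115 FPKM in the TBBPA libraries (log2 difference −1.49, SE 0.13, adjusted p = 3.18e-06). Mxtx2, the homeobox factor at the top of this layer's program, was 15.5 ± 2.1 FPKM in DMSO and 10.6 ± 0.29 in TBBPA, a smaller log2 difference of −0.50 (adjusted p = 4.82e-04). Fn1a, a fibronectin gene, was the member that rose, at 2.06 ± 0.039 FPKM in DMSO and 3.24 ± 0.32 in TBBPA (0.47).

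On the mesoderm and Nodal list 2 were higher and 13 lower of 16 tested, with a median log2 difference of −1.10. Tbxta, the T-box factor of the future notochord and tail, lay at 15.6, 15.6, 18.1 and 21.9 FPKM in the DMSO libraries and 2.08, 1.31, 2.84 and 2.65 FPKM in the TBBPA libraries (log2 difference −2.56, SE 0.16, adjusted p = 5.11e-07). Lft1, a secreted antagonist that Nodal signals induce, was 16.8 ± 1.9 FPKM in DMSO and 1.97 ± 0.51 in TBBPA (−2.60), while the Nodal ligand gene ndr1 was 2.197 ± 0.65 FPKM in DMSO and 2.63 ± 0.52 in TBBPA and did not pass (adjusted p = 0.303). The apelin receptor gene aplnrb, which acts in mesendoderm cell movement, rose and had the highest level of the list, at 330.4, 364, 419.9 and 407 FPKM in the TBBPA libraries and 105, 83.96, 92.9 and 100.5 FPKM in the DMSO libraries (log2 difference 1.98, SE 0.084, adjusted p = 7.19e-08). At 3.5 hpf aplnrb had been 39.5 ± 2.4 FPKM in DMSO and 175 ± 24 in TBBPA. Its ligand gene apela was listed at 0 in all 8 libraries. Such a value cannot tell an absent RNA from one whose reads were not counted.

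Genes of the dorsal organizer and of the ventral side both leaned lower, with medians near the −1.08 of all genes under 0.5 FPKM at 2 hpf. For the organizer 1 was higher and 9 lower of 14 tested, with a median log2 difference of −0.92. Chrd (ENSDARG00000006110, chromosome 15, 46790676 to 46828958), the secreted antagonist of bone morphogenetic protein (BMP), lay at 43.6, 44.3, 49.4 and 62.5 FPKM in the DMSO libraries and 2.28, 1.88, 4.23 and 4.19 FPKM in the TBBPA libraries (log2 difference −3.65, SE 0.20, adjusted p = 2.12e-07). Noto, a homeobox factor of the notochord, was 96.7 ± 14 FPKM in DMSO and 14.99 ± 5.1 in TBBPA (−2.66). Cyp26a1, which breaks down retinoic acid, was 46.7 ± 1.7 FPKM in DMSO and 47.6 ± 1.5 in TBBPA. It did not pass (adjusted p = 0.55), except as higher in both other scalings. Gsc was listed at 0 in all 8 libraries, with the same limit as for apela.

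On the ventral and BMP list 6 were higher and 15 lower of 22 tested, with a median log2 difference of −1.05, and 3 passed the filter through DMSO alone. The ligand gene bmp7a was 42.6 ± 7.0 FPKM in DMSO and 5.54 ± 2.2 in TBBPA (log2 difference −2.79, SE 0.23, adjusted p = 2.16e-06). The ventral repressor vox lay at 75.7, 66.1, 80.4 and 101 FPKM in the DMSO libraries and 18.8, 17.2, 16.1 and 17.6 FPKM in the TBBPA libraries (log2 difference −2.13, SE 0.11, adjusted p = 1.46e-07), and its relative vent at 20.1 ± 5.3 FPKM in DMSO and 8.06 ± 1.4 in TBBPA (−1.20). Smad5, the maternal transducer of BMP signals, differed little, at 336 ± 3.1 FPKM in DMSO and 297 ± 1.9 in TBBPA (−0.18), a call that did not hold in the other scalings. Msx1b, a homeobox target of the pathway that passed the filter through TBBPA alone, was higher, at 0.901 ± 0.50 FPKM in DMSO and 3.12 ± 0.076 in TBBPA (1.15).

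The neurectoderm list gave 3 higher and 10 lower of 14 tested (median −0.86), and it too held members that moved in opposite directions. Sox3, a factor of neural precursors, lay at 104, 109.6, 93.6 and 97.4 FPKM in the DMSO libraries and 56.2, 45.7, 56.01 and 52.9 FPKM in the TBBPA libraries (log2 difference −0.93, SE 0.070, adjusted p = 1.46e-06). Otx1, a homeobox factor of the anterior brain, lay at 43.9, 43.1, 40.4 and 32.8 FPKM in the DMSO libraries and 99.7, 100.5, 92.5 and 90.7 FPKM in the TBBPA libraries (log2 difference 1.25, SE 0.083, adjusted p = 6.54e-07). The TBBPA libraries of otx1 were all above those of DMSO. Her5 of the midbrain field was 195 ± 7.2 FPKM in DMSO and 132 ± 11 in TBBPA (−0.56).

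Among signaling pathways, fibroblast growth factor (FGF) gave 3 higher and 13 lower of 18 tested (median −1.26, with 5 past the filter through DMSO alone) and Hairy and Notch genes 4 higher and 10 lower of 16 tested (median −0.45, with 3 past the filter through DMSO alone). The ligand gene fgf17 was 28.9 ± 4.0 FPKM in DMSO and 4.97 ± 1.2 in TBBPA (−2.34). Hey1, a repressor downstream of Notch, was 12.2 ± 1.4 FPKM in DMSO and 1.32 ± 0.43 in TBBPA (−2.52), and her12, of the same family, was 0.197 ± 0.085 FPKM in DMSO and 3.04 ± 0.84 in TBBPA (1.73). Her12 passed the filter through TBBPA alone. Without DMSO replicate 3, 2 FGF genes were higher, and without DMSO replicate 1 or TBBPA replicate 2, 2 Hairy and Notch genes. Wnt genes divided evenly, with 12 higher and 13 lower of 30 tested (median −0.07), a median that turned positive in both other scalings. Notum1a, a secreted Wnt inhibitor, fell, at 9.06 ± 2.9 FPKM in DMSO and 0.914 ± 0.11 in TBBPA (−2.35), and the receptor gene fzd5 rose, at 5.53 ± 0.69 FPKM in DMSO and 18.7 ± 1.9 in TBBPA (1.59). Retinoic acid genes gave 2 higher and 2 lower of 7 tested (median 0.01, with 1 past the filter through DMSO alone), among them the binding protein gene crabp2b at 4.34 ± 0.40 FPKM in DMSO and 0.412 ± 0.20 in TBBPA (−1.93).

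For chemokine signaling and cell movement 6 were higher and 22 lower of 31 tested (10 and 17 with TPM scaling), with a median log2 difference of −0.45. The count of higher genes was 4 without DMSO replicate 2 or without TBBPA replicate 2 or 3. Rhoab, a small GTPase of the cytoskeleton, lay at 34.99, 36.2, 38.8 and 44.2 FPKM in the DMSO libraries and 4.78, 6.03, 7.34 and 8.61 FPKM in the TBBPA libraries (log2 difference −2.38, SE 0.14, adjusted p = 3.25e-07). The most abundant member, rac1a, was 470.2 ± 10.2 FPKM in DMSO and 343 ± 2.5 in TBBPA (−0.45).

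The maternal activators of the zygotic genome did not move as a group, with 7 higher and 11 lower of 21 tested (median −0.14); the median was 0.02 with TPM scaling. Nanog lay at 1352, 1370, 1324 and 1337 FPKM in the DMSO libraries and 958, 964, 1002 and 962 FPKM in the TBBPA libraries (log2 difference −0.47, SE 0.024, adjusted p = 1.48e-07). Pou5f3 lay at 822, 803, 848 and 898 FPKM in the DMSO libraries and 501, 483, 502 and 490.1 FPKM in the TBBPA libraries (log2 difference −0.77, SE 0.035, adjusted p = 8.36e-08). Sox19b (ENSDARG00000040266, chromosome 7, 26494583 to 26497947) lay at 357, 348, 303 and 293 FPKM in the TBBPA libraries and 79.3, 83.5, 77.9 and 58.9 FPKM in the DMSO libraries, the opposite direction (log2 difference 2.11, SE 0.11, adjusted p = 1.39e-07). At 3.5 hpf sox19b was 445 ± 7.5 FPKM in DMSO and 477 ± 19.9 in TBBPA. Its 435 FPKM at 2 hpf was scaled separately and shows only that the transcript was present then.

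The bromodomain gene brd2a fell, at 153, 147, 153 and 156 FPKM in the DMSO libraries and 54.6, 52.8, 58.00 and 51.9 FPKM in the TBBPA libraries (log2 difference −1.47, SE 0.038, adjusted p = 1.24e-08). Max, the partner of Myc, was 125 ± 1.7 FPKM in DMSO and 128 ± 2.1 in TBBPA and did not pass (adjusted p = 0.175), except as higher in both other scalings. The list of factors that are themselves among the early zygotic transcripts gave 3 higher and 28 lower of 33 tested (median −1.66). Its largest rise was the receptor gene aplnrb, which is no transcription factor and is also on the mesoderm and Nodal list. Cebpb, a leucine zipper factor, lay at 159.5, 155, 157 and 179.5 FPKM in the DMSO libraries and 14.1, 12.9, 16.4 and 18.8 FPKM in the TBBPA libraries (log2 difference −3.32, SE 0.10, adjusted p = 2.66e-08). Nnr was the most abundant, at 378 ± 16 FPKM in DMSO and 102 ± 11 in TBBPA (−1.88).

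Enzymes that write and erase histone acetylation gave similar counts in both directions under the FPKM scaling. Acetyltransferase genes gave 14 higher and 15 lower of 36 tested (median −0.06, with 15 and 7 under TPM scaling) and deacetylase complex genes 15 higher and 15 lower of 40 tested (median 0.07, with 19 and 12 under TPM scaling); the first median was positive in both other scalings. Ep300b, a major maternal acetyltransferase, lay at 34.4, 32.9, 35.1 and 33.01 FPKM in the DMSO libraries and 29.9, 35.99, 28.8 and 36.8 FPKM in the TBBPA libraries, and the groups overlapped (adjusted p = 0.59). Its 95% confidence interval excluded a 1.5-fold difference. Crebbpa, its paralog, was low and higher in TBBPA, at 1.87 ± 0.13 FPKM in DMSO and 4.52 ± 0.45 in TBBPA (log2 difference 0.94, SE 0.085, adjusted p = 4.68e-06). Hdac1 lay at 197, 195, 204 and 209 FPKM in the DMSO libraries and 149.9, 143, 146 and 152 FPKM in the TBBPA libraries (log2 difference −0.44, SE 0.031, adjusted p = 9.85e-07). Trrap, a scaffold of acetyltransferase complexes, fell, at 13.9, 12.5, 25.1 and 21.2 FPKM in the DMSO libraries and 3.29, 5.38, 3.17 and 17.7 FPKM in the TBBPA libraries (log2 difference −1.44, SE 0.43, adjusted p = 0.0132). Its TBBPA replicate 4 lay inside the DMSO range, and the log2 difference was −1.93 without that library. Brpf3b, a bromodomain subunit of others, rose, at 13.8 ± 2.0 FPKM in DMSO and 31.2 ± 4.0 in TBBPA (1.13).

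Histone and DNA methylation genes gave 14 higher and 24 lower of 55 tested (median −0.09, with 20 and 15 under TPM scaling); the median was above 0 in both other scalings. Kdm4ab, a demethylase of histone H3, rose, at 50.8, 52.00, 42.9 and 45.6 FPKM in the TBBPA libraries and 12.3, 12.5, 10.8 and 10.9 FPKM in the DMSO libraries (log2 difference 1.95, SE 0.072, adjusted p = 4.82e-08). The maintenance DNA methyltransferase gene dnmt1 lay at 212, 224, 193 and 198 FPKM in the TBBPA libraries and 88.2, 90.5, 89.5 and 81.4 FPKM in the DMSO libraries (log2 difference 1.23, SE 0.051, adjusted p = 7.05e-08), and its partner uhrf1 at 293 ± 14 FPKM in DMSO and 275 ± 15 in TBBPA, which did not pass (adjusted p = 0.0934). Kmt2e fell, at 14.4 ± 1.4 FPKM in DMSO and 4.29 ± 0.37 in TBBPA (−1.54).

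Histone genes fell almost throughout. Of 85 genes that the table assigns to the histone family, 82 were lower and 2 higher, with a median log2 difference of −1.49, and 38 passed the filter through DMSO alone. A copy of hist1h2a4 on chromosome 7, ENSDARG00000105400, lay at 45.7 ± 6.0 FPKM in DMSO and 2.28 ± 0.71 in TBBPA (−3.85). The replacement histone gene h3f3b.1 on chromosome 3 was the most abundant, at 2479 ± 147 FPKM in DMSO and 1218 ± 64 in TBBPA (−1.02). H2af1al, an oocyte variant of H2A, rose and lay at 1943, 1740, 1602 and 1592 FPKM in the TBBPA libraries and 639.5, 695, 572 and 490.1 FPKM in the DMSO libraries (log2 difference 1.53, SE 0.10, adjusted p = 6.48e-07). Histh1l, a linker histone gene, was 36.6 ± 4.3 FPKM in DMSO and 2.23 ± 0.79 in TBBPA (−3.57). Copies of replication histones are nearly identical, so reads may be split among them, and the levels of single copies are uncertain. The 39 listed histone genes summed to 6275 to 6700 FPKM in the DMSO libraries and 5407 to 5753 in the TBBPA libraries. Summed FPKM over all genes was itself lower in TBBPA. As a share of it, the 39 genes lay closer, at 1.54% ± 0.026 in DMSO and 1.49% ± 0.047 in TBBPA (exact permutation p = 0.114, n = 4). Without TBBPA replicate 1 the difference of these shares was −0.0744 percentage points and passed (exact permutation test, adjusted p = 0.0304).

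Zinc finger genes of the C2H2 kind on chromosome 4 fell as well. Of 212 tested genes of this kind on chromosome 4, 183 were lower and 15 higher, with a median of −1.14; 105 passed the filter through DMSO alone. Their share of summed FPKM was 0.440% ± 0.016 in DMSO and 0.188% ± 0.014 in TBBPA. Znf1060 lay at 24.5, 24.1, 24.8 and 30.04 FPKM in the DMSO libraries and 3.31, 2.44, 3.99 and 3.44 FPKM in the TBBPA libraries (log2 difference −2.65, SE 0.11, adjusted p = 7.19e-08). C2H2 genes elsewhere gave 52 higher and 104 lower of 215 tested (median −0.28, with 63 and 82 under TPM scaling, with 26 past the filter through DMSO alone); blf, the most abundant, fell, at 545 ± 21 FPKM in DMSO and 154 ± 20.1 in TBBPA (−1.82). These genes are near copies of each other too, with the same limit.

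By chromosome, 170 of 613 tested genes on chromosome 4 (27.7%) were lower by over 2-fold, and of these 127 are C2H2 genes. Chromosomes 25 and 7 followed, with 15.6% and 14.1%, and they hold 32 and 27 of the 62 histone family genes that fell by over 2-fold. Without histone and C2H2 genes, 43 of the remaining 401 genes (10.7%) on chromosome 4 were lower by over 2-fold, 63 of 603 (10.4%) on chromosome 7 and 34 of 384 (8.85%) on chromosome 25. On the other chromosomes the share without these genes lay between 2.56% (chromosome 12) and 7.29% (chromosome 22). With them it lay between 2.54% and 7.34%, on the same 2 chromosomes. On chromosome 4, 140 of 613 tested genes passed the filter through DMSO alone. So did 72 of 639 on chromosome 7 and 57 of 422 on chromosome 25. Their selection makes such genes lean lower, and its part in these shares was not tested.

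**Figure D3:**
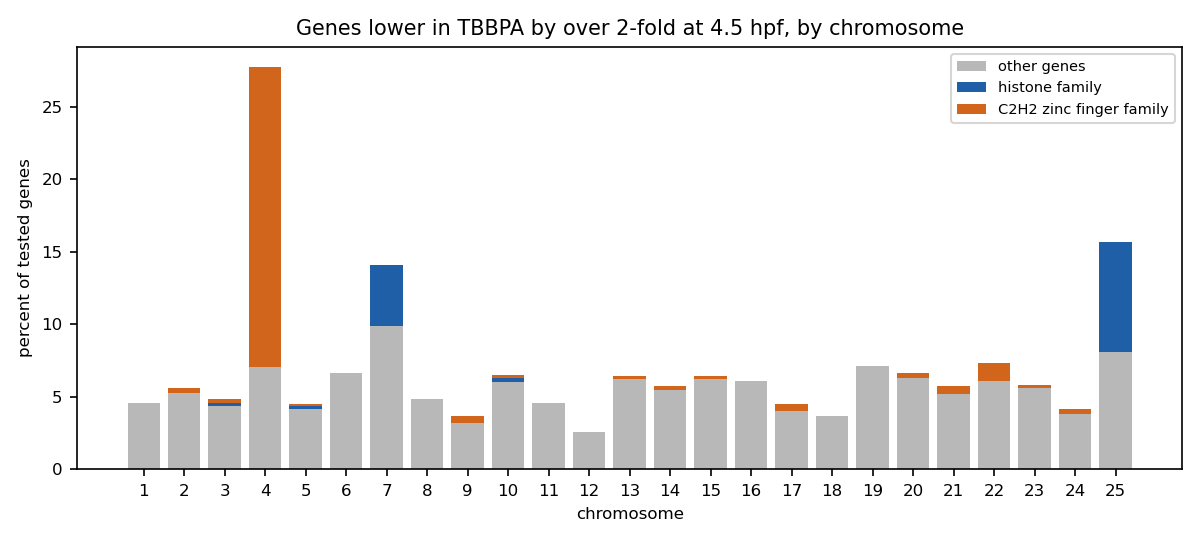
Percent of tested genes lower in TBBPA by over 2-fold at 4.5 hpf (vertical axis) on each of the 25 chromosomes (horizontal axis), split into histone family, C2H2 zinc finger family and other genes. Chromosome 4 reaches 27.7%, mostly zinc finger genes, and chromosomes 25 and 7 reach 15.6% and 14.1%, with a large part from histone genes. Genes past the filter through DMSO alone, which lean lower by their selection, are included.

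Transcripts that mothers store in the egg made up most of the genes with the largest excess in TBBPA over DMSO. Of the 540 genes higher by over 2-fold, 514 (95.2%) had at least 2 FPKM at 2 hpf. Most tested genes did so too: of all 12324, 5649 lay at 2 to 20 FPKM at 2 hpf and 3804 at 20 FPKM and above. Dnajc5ga (ENSDARG00000041896, chromosome 20, 38763953 to 38787341), which encodes a J domain protein, had the largest rise among protein-coding genes that reach 5 FPKM and have a symbol other than a clone name, and lay at 54.3, 57.2, 50.1 and 44.98 FPKM in the TBBPA libraries and 7.18, 7.58, 7.55 and 7.77 FPKM in the DMSO libraries (log2 difference 2.62, SE 0.070, adjusted p = 1.28e-08). Its level at 3.5 hpf was 67.04 ± 4.3 FPKM in DMSO and 82.5 ± 5.3 in TBBPA. The 154 FPKM of dnajc5ga at 2 hpf was scaled separately and cannot be set against these. Cpeb1b, whose product controls the poly(A) tails of stored messages, lay at 94.5, 98.8, 79.6 and 79.2 FPKM in the TBBPA libraries and 18.6, 19.1, 17.1 and 17.4 FPKM in the DMSO libraries (log2 difference 2.22, SE 0.075, adjusted p = 3.38e-08), after 85.9 ± 2.1 FPKM in DMSO and 119 ± 6.8 in TBBPA at 3.5 hpf. For dnajc5ga the TBBPA level at 4.5 hpf lay between the DMSO levels of 3.5 and 4.5 hpf. In TBBPA, both dnajc5ga and cpeb1b were lower at 4.5 hpf than at 3.5 hpf.

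On the list of oocyte transcripts 25 were higher and 13 lower of 55 tested (30 and 9 with TPM scaling), with a median log2 difference of 0.15. Their share of summed FPKM was 1.83% ± 0.048 in DMSO and 2.40% ± 0.076 in TBBPA (exact permutation p = 0.0286). Buc, the organizer of the Balbiani body and the germ plasm, lay at 190, 194, 173 and 171 FPKM in the TBBPA libraries and 51.7, 54.3, 47.6 and 38.5 FPKM in the DMSO libraries (log2 difference 1.91, SE 0.094, adjusted p = 1.27e-07). Its relative buc2l was 12.4 ± 1.6 FPKM in DMSO and 63.9 ± 6.2 in TBBPA (2.28). Esrp1, a splicing regulator of epithelia, fell against the list, at 14.1 ± 3.4 FPKM in DMSO and 1.02 ± 0.32 in TBBPA (log2 difference −2.88, SE 0.16, adjusted p = 2.61e-07).

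Germ plasm genes gave 11 higher and 9 lower of 27 tested (median 0.10, with 13 and 2 under TPM scaling). Ddx4, the Vasa helicase of germ cells, lay at 144, 149, 148 and 148 FPKM in the DMSO libraries and 109, 117, 124 and 121 FPKM in the TBBPA libraries (log2 difference −0.32, SE 0.038, adjusted p = 3.31e-05). Nanos3 lay at 58.7, 68.6, 62.5 and 59.7 FPKM in the DMSO libraries and 68.9, 70.26, 71.1 and 63.4 FPKM in the TBBPA libraries and did not pass (adjusted p = 0.0525), though it passed, as higher, in 8 of 16 alternatives, at log2 differences of 0.13 to 0.31.

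Genes of RNA decay and clearance gave 28 higher and 38 lower of 83 tested (median −0.11, with 37 and 24 under TPM scaling); the median was above 0 in both other scalings. Lsm1, part of the ring that activates decapping of messages, lay at 39.9, 36.2, 33.5 and 32.3 FPKM in the TBBPA libraries and 9.54, 9.997, 7.21 and 5.51 FPKM in the DMSO libraries (log2 difference 2.04, SE 0.15, adjusted p = 1.25e-06). Ybx1, a Y-box protein that binds maternal messages, was the most abundant, at 810.1 ± 47 FPKM in DMSO and 446 ± 11 in TBBPA (−0.86). Smg1, a kinase of nonsense-mediated decay, was 5.78 ± 0.74 FPKM in DMSO and 2.61 ± 0.44 in TBBPA (−0.91), and btg2, a recruiter of deadenylases, lay at 357, 359, 352 and 351 FPKM in the DMSO libraries and 362, 359, 388 and 352 FPKM in the TBBPA libraries and did not pass (adjusted p = 0.274), except as higher in both other scalings.

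Other large rises had varied roles. Lrrcc1, a centriole protein gene, was 3.73 ± 0.13 FPKM in DMSO and 18.6 ± 1.9 in TBBPA (2.04), and stard7, a lipid transfer protein gene, 5.82 ± 0.78 FPKM in DMSO and 26.3 ± 2.6 in TBBPA (2.00). Traf3, an adaptor of immune receptors, was 4.09 ± 0.45 FPKM in DMSO and 19.2 ± 2.0 in TBBPA (1.99), and ssh2a, a phosphatase that acts on cofilin, 3.23 ± 0.18 FPKM in DMSO and 15.2 ± 1.4 in TBBPA (1.94). The forkhead gene si:ch211-239d6.2 was higher still, at 155, 176, 221 and 215 FPKM in the TBBPA libraries and 34.7, 17.1, 26.8 and 33.2 FPKM in the DMSO libraries (log2 difference 2.77, SE 0.20, adjusted p = 1.04e-06).

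Some genes of growth arrest and the DNA damage response were among the few zygotic genes that rose, while the list of such genes as a whole was divided, with 20 higher and 16 lower of 43 tested (median 0.17, with 22 and 10 under TPM scaling). Cdkn1a (ENSDARG00000076554, chromosome 22, 603382 to 607812), the inhibitor of cyclin-dependent kinases, lay at 37.6, 41.3, 47.04 and 48.3 FPKM in the TBBPA libraries and 8.57, 5.89, 7.695 and 8.26 FPKM in the DMSO libraries (log2 difference 2.38, SE 0.11, adjusted p = 9.66e-08). The growth arrest gene gadd45aa lay at 23, 26.7, 26.7 and 33.2 FPKM in the TBBPA libraries and 5.95, 3.51, 4.22 and 6.72 FPKM in the DMSO libraries (log2 difference 2.24, SE 0.17, adjusted p = 1.35e-06), and bbc3, a killer of the Bcl-2 family, at 11.1, 13.5, 14.9 and 15.99 FPKM in the TBBPA libraries and 2.62, 1.46, 1.85 and 2.697 FPKM in the DMSO libraries (log2 difference 2.25, SE 0.15, adjusted p = 6.54e-07). The groups did not overlap in any of these genes, which their choice among the largest rises required. Over all tested genes the groups did not overlap in 63.4%.

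Mdm2, a ubiquitin ligase gene of the same list, lay at 11.2, 11.9, 16.6 and 18.2 FPKM in the TBBPA libraries and 4.83, 4.13, 5.04 and 4.91 FPKM in the DMSO libraries (log2 difference 1.41, SE 0.14, adjusted p = 9.86e-06). Perp, an epithelial junction gene, fell, at 14.6, 10.6, 14.4 and 19.2 FPKM in the DMSO libraries and 1.44, 1.53, 1.53 and 1.63 FPKM in the TBBPA libraries (log2 difference −2.60, SE 0.14, adjusted p = 2.11e-07). Apoptosis genes gave 16 higher and 8 lower of 32 tested (median 0.27, with 5 past the filter through DMSO alone): bmf1, of the killer group, was 8.69 ± 1.5 FPKM in DMSO and 25.3 ± 2.8 in TBBPA (1.45), bcl2l11 1.95 ± 0.48 FPKM in DMSO and 0.371 ± 0.24 in TBBPA (−1.11), and bcl2l10, also of the Bcl-2 family, 106 ± 4.0 FPKM in DMSO and 127 ± 3.4 in TBBPA (0.26).

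Immediate early and AP-1 genes gave 8 higher and 8 lower of 19 tested (median 0.19). Fosab lay at 8.703, 10.2, 10.7 and 10.3 FPKM in the TBBPA libraries and 2.29, 3.098, 3.404 and 4.03 FPKM in the DMSO libraries (log2 difference 1.40, SE 0.12, adjusted p = 4.14e-06). Isg15, an interferon-induced relative of ubiquitin, lay at 55.4, 71.2, 74.5 and 87.3 FPKM in the TBBPA libraries and 20.9, 12.8, 14.3 and 18.5 FPKM in the DMSO libraries (log2 difference 2.06, SE 0.16, adjusted p = 1.80e-06). Of the 44 genes that were near absent at 2 hpf and higher at 4.5 hpf, 17 were higher by over 2-fold. Counting only genes with at least 1 FPKM in all 8 libraries, 25 were higher, 11 of them by over 2-fold. Cdkn1a, bbc3, gadd45aa, isg15 and aplnrb led the 44. Phlda3, which restrains Akt, came next, at 8.59 ± 3.8 FPKM in DMSO and 32.3 ± 9.4 in TBBPA (1.86). The others past 2-fold with a gene symbol included gadd45ga (1.83), rasl11b (1.37), selp (1.23), ifit8 (1.17) and irx7 (1.16). Of these, gadd45ga and ifit8, with means of 0.76 and 0.59 FPKM in DMSO, passed the filter through TBBPA alone. From 3.5 to 4.5 hpf, irx7 fell in both groups, from 101.6 to 48.2 FPKM in DMSO and from 127.5 to 109.2 in TBBPA. So did selp, from 12.1 to 4.47 FPKM in DMSO and from 13.4 to 11.8 in TBBPA. Gadd45ga went from 2.76 to 0.76 FPKM in DMSO and from 5.31 to 5.35 in TBBPA. Rasl11b and ifit8 were higher at 4.5 hpf than at 3.5 hpf in both groups. These names from phlda3 on were chosen after their values were seen.

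Other stress responses moved in single members. Heat shock genes gave 4 higher and 14 lower of 24 tested (median −0.16, with 7 and 6 under TPM scaling). Hspb1, a small chaperone, lay at 366, 351, 382 and 465 FPKM in the DMSO libraries and 61.7, 64.2, 87.3 and 88.04 FPKM in the TBBPA libraries (log2 difference −2.37, SE 0.13, adjusted p = 2.01e-07), the cytosolic chaperone gene hsp90ab1 at 436 ± 13 FPKM in DMSO and 324 ± 13 in TBBPA (−0.43), and the inducible cochaperone gene dnajb1a at 3.03 ± 0.56 FPKM in DMSO and 9.93 ± 2.1 in TBBPA (1.43). The unfolded protein response gave 17 higher and 13 lower of 44 tested (median −0.02, with 24 and 9 under TPM scaling), with a median above 0 in both other scalings. Atf4a, its translation-controlled factor, was 82.4 ± 7.4 FPKM in DMSO and 24.3 ± 4.0 in TBBPA (−1.73), the disulfide isomerase gene pdia4 33.5 ± 3.1 FPKM in DMSO and 80.5 ± 4.4 in TBBPA (1.25), and the endoplasmic reticulum chaperone gene hspa5 422 ± 15 FPKM in DMSO and 479.8 ± 13 in TBBPA (0.19).

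Antioxidant genes gave 9 higher and 10 lower of 32 tested (median −0.07, with 15 and 3 under TPM scaling), and this median too was above 0 in the other scalings. Superoxide dismutase sod1 rose, at 19.8 ± 1.3 FPKM in DMSO and 41.9 ± 2.5 in TBBPA (log2 difference 1.04, SE 0.058, adjusted p = 2.25e-07), and gstp1, the most abundant glutathione transferase of the list, at 110.1 ± 12 FPKM in DMSO and 162 ± 12 in TBBPA (0.55). On the list of xenobiotic metabolism 34 genes were found and 12 tested, with 5 higher and 3 lower (2 lower without DMSO replicate 1 or 3 or without TBBPA replicate 2). The sulfotransferase gene sult6b1 lay at 158, 157, 156 and 195 FPKM in the DMSO libraries and 14.8, 16.7, 24.2 and 23.97 FPKM in the TBBPA libraries (log2 difference −3.03, SE 0.15, adjusted p = 1.35e-07). The aryl hydrocarbon receptor gene ahr2 was 5.896 ± 0.33 FPKM in DMSO and 5.97 ± 0.24 in TBBPA and did not pass (adjusted p = 0.851). Its classic target cyp1a was under the filter, at 0.585 ± 0.17 FPKM in DMSO and 0.532 ± 0.051 in TBBPA.

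TBBPA is a brominated relative of bisphenol A, and nuclear receptors of thyroid hormone, fatty acids and estrogen were therefore listed. They gave 10 higher and 6 lower of 21 tested (median 0.16, with 12 and 4 under TPM scaling). Thraa, a thyroid hormone receptor, lay at 13.4, 11.5, 12.6 and 11.5 FPKM in the TBBPA libraries and 5.68, 5.805, 4.77 and 3.93 FPKM in the DMSO libraries (log2 difference 1.14, SE 0.11, adjusted p = 5.69e-06). Dio1, which activates thyroid hormone, was low, at 1.44 ± 0.22 FPKM in DMSO and 0.472 ± 0.084 in TBBPA (−0.72). Of the 16 tested genes that the table assigns to the nuclear receptor family, 9 were higher and 0 lower, with a median of 0.27. In this family 2 passed the filter through TBBPA alone.

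The machinery of protein synthesis was lower by small amounts. Of 80 tested genes of the cytosolic ribosome, 73 were lower and 0 higher, with a median log2 difference of −0.56, and this remained −0.39 and −0.43 in the other scalings. Rps14, the most abundant, lay at 582, 635, 617 and 672 FPKM in the DMSO libraries and 494, 465, 489 and 496 FPKM in the TBBPA libraries (log2 difference −0.36, SE 0.042, adjusted p = 2.74e-05). Rps12 fell most, at 15.2 ± 3.1 FPKM in DMSO and 5.95 ± 2.4 in TBBPA (−1.26). The share of the ribosomal genes in summed FPKM was 2.31% ± 0.081 in DMSO and 1.81% ± 0.063 in TBBPA. Ribosome biogenesis gave 15 higher and 76 lower of 117 tested (median −0.27, with 26 and 52 under TPM scaling), with ncl, nucleolin, at 976 ± 25 FPKM in DMSO and 696 ± 18 in TBBPA (−0.49) and rrp15 at 25.6 ± 4.0 FPKM in DMSO and 5.64 ± 1.6 in TBBPA (−2.02).

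Translation initiation gave 8 higher and 41 lower of 57 tested (median −0.29, with 10 and 27 under TPM scaling) and splicing 4 higher and 84 lower of 94 tested (median −0.37). Both medians stayed below 0 in the other scalings. Eif4a2, an RNA helicase, was 9.77 ± 1.7 FPKM in DMSO and 1.87 ± 0.20 in TBBPA (−1.90), and eif4ebp2, which restrains cap binding, rose, at 47.6 ± 2.7 FPKM in DMSO and 99.1 ± 6.7 in TBBPA (1.04). The core splicing gene snrpb lay at 1266, 1305, 1250 and 1387 FPKM in the DMSO libraries and 987, 971, 1024 and 975 FPKM in the TBBPA libraries (log2 difference −0.40, SE 0.035, adjusted p = 4.00e-06), and the SR protein gene srsf5a at 151 ± 19.6 FPKM in DMSO and 46.6 ± 3.9 in TBBPA (−1.67). Lsm4 was an exception, at 60.8 ± 3.6 FPKM in DMSO and 109 ± 11 in TBBPA (0.83). Transfer RNA synthetase genes, which charge transfer RNAs with amino acids, gave 9 higher and 14 lower of 29 tested (median −0.08, with 12 and 8 under TPM scaling), a median above 0 in both other scalings; aimp2, a scaffold of the synthetase complex and the most abundant of the list, was 121 ± 4.3 FPKM in DMSO and 123.3 ± 1.8 in TBBPA and did not pass (adjusted p = 0.477), except as higher in both other scalings. Proteasome genes gave 6 higher and 33 lower of 46 tested (median −0.30): psmc3 was 178 ± 5.7 FPKM in DMSO and 147 ± 5.6 in TBBPA (−0.27), psmb6 12.5 ± 1.7 FPKM in DMSO and 4.28 ± 0.47 in TBBPA (−1.35), and the inhibitor gene psmf1 rose, at 15.7 ± 2.0 FPKM in DMSO and 28.2 ± 1.4 in TBBPA (0.81).

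Ribosomal and proteasome genes are short, and short genes as a class were lower under the FPKM scaling. In the shortest of 5 length classes, 1008 were lower and 491 higher of 2467 (median −0.16). Of these 2467 genes, 312 passed the filter through DMSO alone and 103 through TBBPA alone. In the longest class 787 were lower and 935 higher of 2463 (median 0.03). With TPM scaling the shortest class gave 753 lower and 704 higher and the longest 454 and 1193. The part of gene length in the list results was not tested.

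All 13 protein genes of the mitochondrial genome were lower, with a median of −0.55. Mt-co1, a subunit of cytochrome oxidase, lay at 6282, 5996, 6048 and 6110 FPKM in the DMSO libraries and 3825, 3910, 4447 and 4202 FPKM in the TBBPA libraries (log2 difference −0.58, SE 0.045, adjusted p = 1.62e-06). The nuclear genes of oxidative phosphorylation gave 4 higher and 36 lower of 72 tested (median −0.22, with 18 and 23 under TPM scaling) and mitochondrial ribosomal proteins 16 higher and 21 lower of 64 tested (median −0.02, with 26 and 12 under TPM scaling), a median above 0 in the other scalings. Mitochondrially encoded genes took 6.13% ± 0.14 of summed FPKM in DMSO and 4.77% ± 0.32 in TBBPA.

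DNA replication genes gave 21 higher and 31 lower of 61 tested (median −0.16, with 24 and 20 under TPM scaling) and cell cycle genes 25 higher and 36 lower of 78 tested (median −0.10, with 34 and 29 under TPM scaling); the medians were 0.01 and 0.06 with TPM scaling. Mcm6, a subunit of the replicative helicase, lay at 20.1, 19.9, 21.2 and 25.2 FPKM in the DMSO libraries and 3.75, 2.69, 4.25 and 4.39 FPKM in the TBBPA libraries (log2 difference −2.25, SE 0.12, adjusted p = 2.15e-07), while mcm5 of the same ring was 76.9 ± 2.5 FPKM in DMSO and 58.7 ± 1.0 in TBBPA (−0.38). The sliding clamp gene pcna was 714 ± 38 FPKM in DMSO and 506 ± 16 in TBBPA (−0.50). Ccnd1, the cyclin of entry into the cycle, lay at 155, 144, 165 and 182 FPKM in the DMSO libraries and 21.7, 18.97, 28.7 and 31.1 FPKM in the TBBPA libraries (log2 difference −2.66, SE 0.14, adjusted p = 1.71e-07). Gmnn, the licensing inhibitor, was 152 ± 8.9 FPKM in DMSO and 158 ± 10.2 in TBBPA and did not pass (adjusted p = 0.382), though it did, as higher, in both other scalings.

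RNA polymerase II machinery gave 37 higher and 46 lower of 111 tested (median −0.08, with 50 and 34 under TPM scaling), again a median above 0 in the other scalings. Tbpl2, the TATA-binding protein of oocytes, lay at 12.4, 14.6, 12.5 and 13.2 FPKM in the TBBPA libraries and 4.15, 3.93, 3.97 and 4.55 FPKM in the DMSO libraries (log2 difference 1.46, SE 0.073, adjusted p = 1.42e-07). Polr2k, a small polymerase subunit, was 8.97 ± 2.0 FPKM in DMSO and 4.46 ± 0.80 in TBBPA (−0.86). Nuclear transport gave 6 higher and 26 lower of 49 tested (median −0.18, with 17 and 15 under TPM scaling), with kpna7, an importin known from mammalian eggs, higher at 50.6 ± 4.1 FPKM in DMSO and 122 ± 5.9 in TBBPA (1.25) and kpna5 lower at 13.7 ± 1.3 FPKM in DMSO and 4.49 ± 0.45 in TBBPA (−1.42). In cholesterol synthesis, 7 were higher and 7 lower of 22 tested (10 and 5 with TPM scaling), with a median log2 difference of 0.03: hmgcs1 was 34.8 ± 3.0 FPKM in DMSO and 73.1 ± 3.0 in TBBPA (1.05) and cyp51 3.61 ± 0.50 FPKM in DMSO and 0.542 ± 0.24 in TBBPA (−1.58). Glycolysis gave 8 higher and 8 lower of 22 tested (median 0.09, with 12 and 6 under TPM scaling), and tpi1a rose, at 11.8 ± 1.1 FPKM in DMSO and 34.3 ± 2.6 in TBBPA (1.46).

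**Figure D4:**
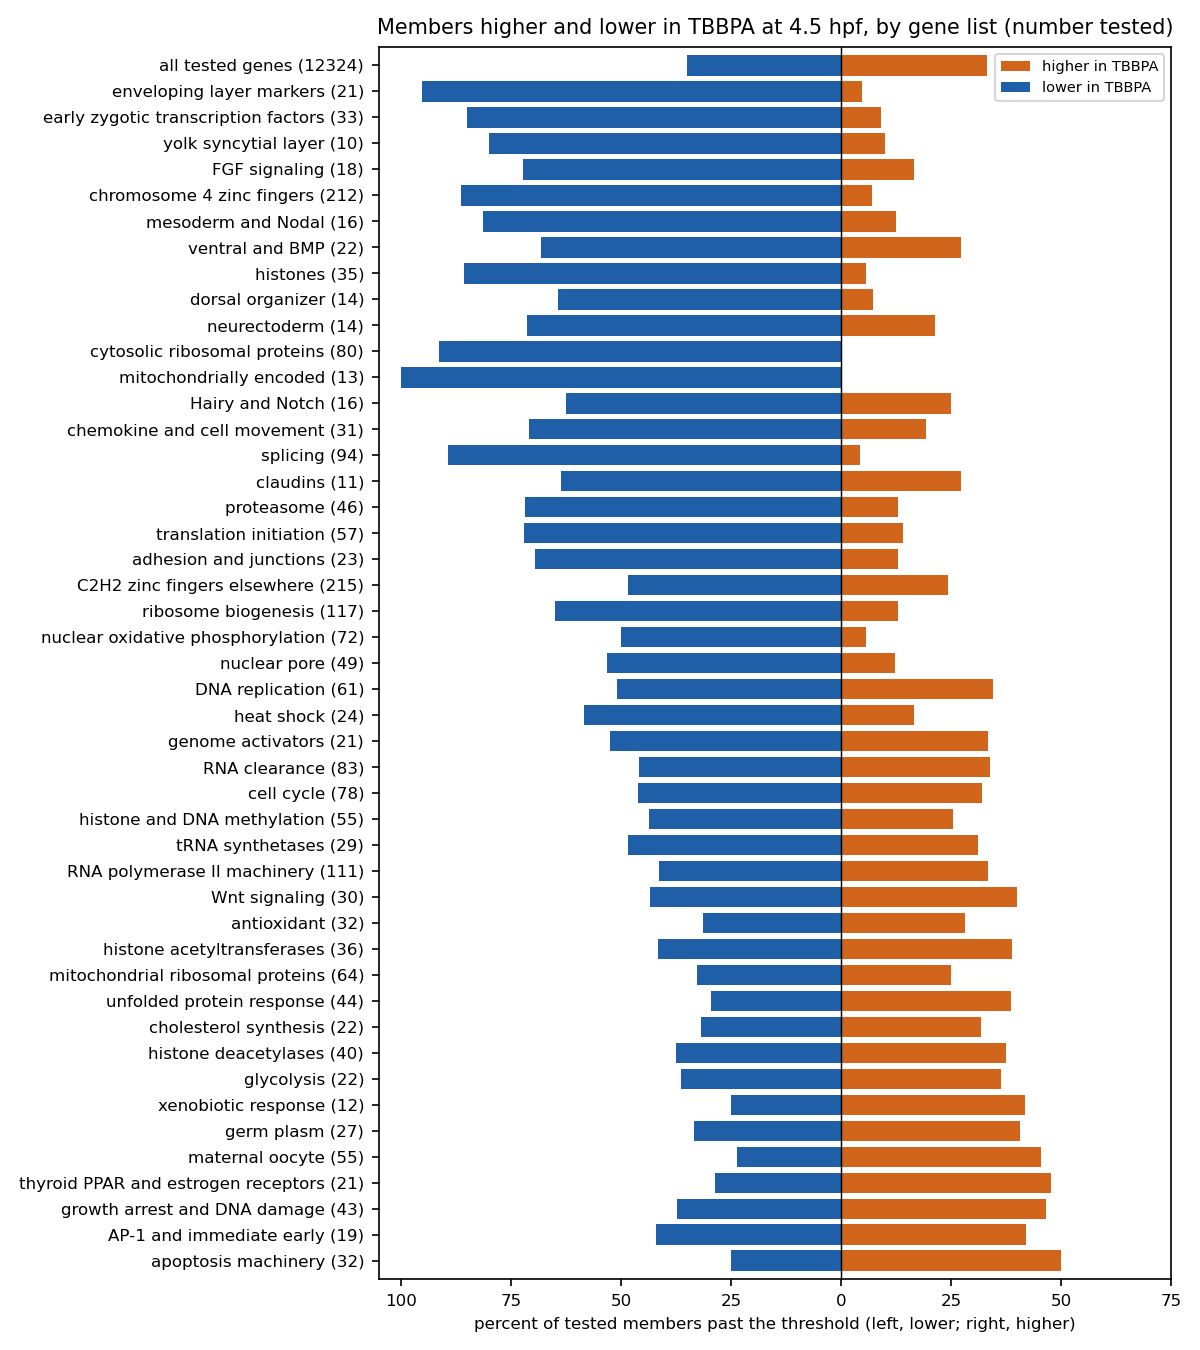
Percent of tested members higher (right, orange) and lower (left, blue) in TBBPA at 4.5 hpf (horizontal axis) for each gene list with at least 10 tested members and for all 12324 tested genes (vertical axis, number tested in brackets, ordered by median difference). Enveloping layer markers lie at 20 lower of 21, cytosolic ribosomal proteins at 73 lower of 80, and apoptosis genes at 16 higher of 32.

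The families that the table annotates differed in direction as well. RNA-binding proteins with an RRM domain gave 20 higher and 112 lower of 157 tested (median −0.31), and the median stayed below 0 in both other scalings. Some families had more rises than falls. BTB domain proteins gave 40 higher and 7 lower of 64 tested (median 0.37). PH domain proteins gave 28 higher and 6 lower of 53 tested (median 0.19, with 35 and 2 under TPM scaling). RhoGEF exchange factors gave 23 higher and 6 lower of 45 tested (median 0.26, with 30 and 2 under TPM scaling). Of the RhoGEF genes 5 passed the filter through TBBPA alone. SH2 domain adaptors gave 12 higher and 1 lower of 24 tested (median 0.24) and TBC domain regulators of Rab GTPases 19 higher and 5 lower of 33 tested (median 0.20, with 23 and 0 under TPM scaling). The few lower members varied with the libraries used: 3 PH genes were lower without TBBPA replicate 1 or 2, 3 RhoGEF genes without DMSO replicate 3 or TBBPA replicate 1, and 3 TBC genes without any single library other than DMSO replicate 2 or TBBPA replicate 4. Their largest rises were btbd9 (1.62), asap3 (1.57), fgd4b (1.48), cish (1.19) and tbc1d25 (1.06). Cish, which dampens cytokine receptors, lay at 49.3, 46.1, 45.6 and 40.4 FPKM in the TBBPA libraries and 19.4, 22.8, 19.4 and 16.1 FPKM in the DMSO libraries. Protein kinases gave 115 higher and 83 lower of 266 tested (median 0.07, with 136 and 47 under TPM scaling); csnk1g1, a casein kinase, was 5.12 ± 0.72 FPKM in DMSO and 20.02 ± 1.3 in TBBPA (1.78) and mapk12b, a p38 kinase, 20.7 ± 2.8 FPKM in DMSO and 2.26 ± 0.91 in TBBPA (−2.77).

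Homeobox genes gave 10 higher and 16 lower of 36 tested (median −0.02, with 16 and 14 under TPM scaling), with 5 past the filter through TBBPA alone. Forkhead genes gave 16 higher and 12 lower of 32 tested (median 0.11, with 16 and 7 under TPM scaling). In the forkhead family, foxa3, a gene of the endoderm and prechordal plate, was 39.7 ± 5.6 FPKM in DMSO and 6.32 ± 2.0 in TBBPA (log2 difference −2.51, SE 0.18, adjusted p = 9.71e-07). Lhx8a, a factor known from mammalian oocytes, was 1.51 ± 0.35 FPKM in DMSO and 4.59 ± 0.70 in TBBPA (1.16). Among receptors of the rhodopsin class, lpar6a, a receptor for lysophosphatidic acid, fell most, at 10.9 ± 0.90 FPKM in DMSO and 0.534 ± 0.27 in TBBPA (−2.97). The cytochrome P450 family gave 8 higher and 8 lower of 23 tested (median 0.03, with 4 past the filter through DMSO alone and 3 through TBBPA alone). Cyp2aa9 was 24.2 ± 3.4 FPKM in DMSO and 3.88 ± 1.5 in TBBPA (−2.41) and cyp2r1, a vitamin D hydroxylase, 6.26 ± 0.47 FPKM in DMSO and 11.4 ± 0.33 in TBBPA (0.77). Sema6dl, a semaphorin, was 22.3 ± 3.8 FPKM in DMSO and 2.51 ± 0.84 in TBBPA (−2.75).

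Under the FPKM scaling, small nucleolar RNA genes and transfer RNA genes of the mitochondrion leaned lower. Of tested genes 65% and 50% were lower, against 35.0% of all genes. Of long intergenic RNA genes 32.7% were lower, near the share of all genes, and 21.2% higher, against 33.1% of all genes. Of 40 tested small nucleolar RNA genes, which guide modification of ribosomal RNA, 26 were lower and 0 higher, with a median of −1.36; 23 of the 40 passed the filter through DMSO alone. Long intergenic RNA genes gave 24 higher and 37 lower of 113 tested (median 0.00, with 36 and 32 under TPM scaling). Of the 113, 20 passed the filter through DMSO alone and 16 through TBBPA alone. By over 2-fold, 20 of the 113 were lower and 5 higher, against 7.43% and 4.38% of all genes. Transfer RNA genes of the mitochondrion gave 0 higher and 9 lower of 18 (0 and 6 with TPM scaling), and 4 passed the filter through DMSO alone. The table holds 55 genes of miR-430, microRNAs that clear maternal messages; 20 had a value above 0 in at least 1 library and 2 passed the filter. Strand use is not settled by the labels, which name both a directional and a non-directional library kit, so antisense and overlapping genes are uncertain.

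Genes whose symbols differ only in a final a or b were compared in pairs. These letters often mark duplicates kept in zebrafish, but among the 900 pairs with both members tested some are subunits or other genes that merely share a name. In 150 pairs both were higher, in 154 both lower, and in 153 (17%) the members moved in opposite directions. In the other 443 at least 1 member did not pass. Of all tested genes 33.1% were higher and 35.0% lower, so many opposite pairs would arise among unrelated genes too. Whether the 153 differ from such pairs was not tested. Among these 153, the member with the higher level at 2 hpf was the one that rose in 88 pairs and the one that fell in 65. This comparison and the pairs named from it were chosen after the values were seen.

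The widest gap was between the apelin receptors. Aplnra lay at 69.8, 63.9, 78.2 and 79.98 FPKM in the DMSO libraries and 12.2, 10.1, 15.3 and 17.4 FPKM in the TBBPA libraries (log2 difference −2.34, SE 0.14, adjusted p = 3.70e-07), against the rise of aplnrb above, and both were near 0 at 2 hpf. In the next pair, sox19a, a zygotic gene of neural precursors, was 51.2 ± 3.1 FPKM in DMSO and 13.9 ± 1.9 in TBBPA (log2 difference −1.81, SE 0.086, adjusted p = 1.04e-07), while maternal sox19b was higher in TBBPA than in DMSO. Bmp7b was 0.690 ± 0.22 FPKM in DMSO and 1.49 ± 0.34 in TBBPA (0.56), against the fall of bmp7a. Arl4aa was 9.54 ± 2.4 FPKM in DMSO and 33.5 ± 2.4 in TBBPA (1.74) and arl4ab 18.6 ± 1.3 FPKM in DMSO and 5.997 ± 0.62 in TBBPA (−1.49), and 2 hpf levels were 47.5 and 0.0729 FPKM. Brd2b was 14.5 ± 1.3 FPKM in DMSO and 25.2 ± 1.6 in TBBPA (0.76), against the fall of brd2a.

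**Figure D5:**
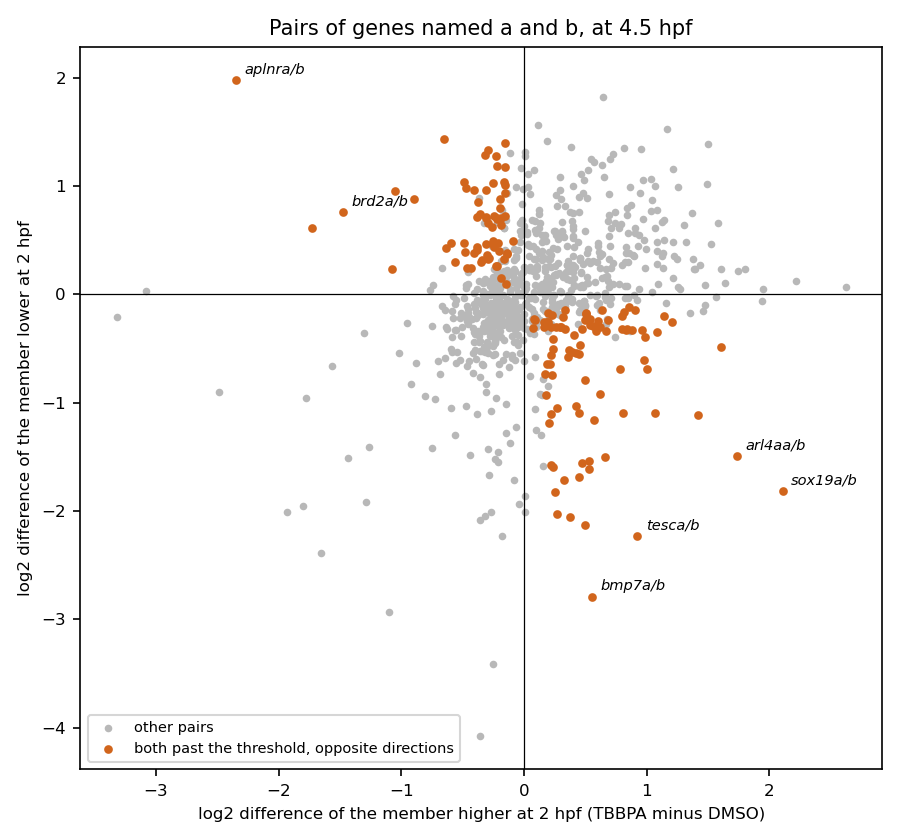
Log2 differences at 4.5 hpf, TBBPA minus DMSO, of 900 pairs of genes whose symbols differ in a final a or b, 1 point a pair, with the member higher at 2 hpf on the horizontal axis and the other on the vertical axis. Orange points are the 153 pairs past the threshold in opposite directions, of which 88 lie at the lower right, where the member higher at 2 hpf rose.

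Many transcripts were close to equal. For 7176 of the 12324 genes (58.2%) the 95% confidence interval of the difference lay within 1.5-fold on either side. This count depended on the processing: it was 6090 with 0.1 in place of 1 added to FPKM and 6045 with TPM scaling. Of the 3932 genes that did not pass, 3476 had such an interval and 456 a wider one. The acetyltransferase gene ep300b and the occludin gene oclnb, described above, were among them.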

How the data were processed

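The authors sequenced total RNA and, per the submitters' processing notes, used HISAT2 2.0.5 and featureCounts 1.5.0-p3; genome build and annotation: not given in the sources used here. The deposited tables hold FPKM for 31901 genes, per the file headers, in 1 table for 3.5 and 4.5 hpf and 1 for 2 hpf, each scaled separately. Every FPKM times gene length was a whole multiple of 1 step in its library (within 0.001), which gave the assigned reads. The table of 4.5 hpf was fitted with limma 3.58.1 in R 4.3.3 on log2(FPKM + 1) with an intensity trend and Benjamini-Hochberg adjustment over the 12324 genes that reached 1 FPKM in 4 or more of 8 libraries. Library-level shares were compared with an exact permutation test. The script was tested on simulated data.

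Of 3061 symbols written for 50 gene lists, 54 were not matched and 30 were matched through an identifier table. The comparison and lists were chosen with earlier results of these data known. Named genes were the 15 largest rises and falls among groups that did not overlap and reached a mean of 5 FPKM, up to 4 members of each list (largest rise, largest fall, highest level, highest level not passed), defining genes, and the extremes of families of at least 15 tested genes. Not all genes so selected are described: kpnb1, esrra, atp5f1b, hat1 and snai1a did not pass and were left out after their differences near 0 were seen to change sign between settings. Some selected genes are not reported here. The comparisons by chromosome, a and b gene pair and RNA class were added after values were seen. Alternatives changed the pseudocount, filter, scaling, test, samples fitted and replicates.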

Additional observations from a re-analysis of the deposited data

Results flagged for a closer look

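In 17 of 366 groups of 4 libraries checked, the highest or lowest library stood apart: its gap to the nearest other library, as a part of the group's range, was above Dixon's critical value of 0.829. Chance flags about 1 in 20 such groups. No cause was tested.

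DMSO replicate 4 stood above the other DMSO libraries in 7 of these groups. The ratio was 0.966 for sult6b1, 0.907 for cldnb, 0.879 for znf1060, 0.865 for ybx1, 0.863 for crabp2b, 0.859 for cldne and 0.857 for h3f3b.1. In sult6b1, for example, it lay at 194.8 FPKM against 156.1 to 157.5 FPKM in the others. Each of these 7 genes was lower in TBBPA, and each stayed lower and past the threshold without that library.

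TBBPA replicate 4 stood apart in gadd45ga (0.986), at 3.04 FPKM against 6.10 to 6.14 FPKM, and in trrap (0.848), at 17.7 FPKM against 3.17 to 5.38 FPKM. TBBPA replicate 3 was high in nanog (0.882) and cyp51 (0.874). TBBPA replicate 2 was low in the share of cytosolic ribosomal proteins (0.914), at 1.71% of summed FPKM, and high in psmb6 (0.897). The same library was low in kmt2e (0.837) and high in dio1 (0.833). TBBPA replicate 1 was high in the share of histone genes (0.900), at 1.56%. In DMSO, replicate 2 stood low in dio1 (0.898), at 1.104 FPKM.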

How the results depend on the processing

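Of 8392 genes called, the alternatives called 8362 with a pseudocount of 0.1, 9508 with no low-value filter, 7386 with at least 1 FPKM in all 8 libraries, 8172 with TPM scaling, 8140 with total-count scaling, 8400 with voom on the recovered reads and 8638 in a fit of all 16 libraries of 3.5 and 4.5 hpf. Genes called in both kept their direction, except 19 of 6887 with TPM scaling and 3 of 7127 with total-count scaling. The count of lower genes, 4317, moved by over 1.5 times with TPM scaling, to 2793. The count of genes with an interval within 1.5-fold, 7176, became 18172 of 24733 with no low-value filter, where many more genes are tested. Among the same 12324 genes it was 6090 with a pseudocount of 0.1, 6045 with TPM scaling and 6057 with voom on the recovered reads. Leaving out each library in turn gave 7930 to 8212 calls, 3872 to 3999 higher and 4057 to 4226 lower, and 6837 to 7239 genes with such an interval.

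With the replicate number as a block, 8293 genes were called, 4029 higher and 4264 lower. The block was not used, because the labels do not say what a replicate number shares. Deviations of libraries with the same number had correlations of 0.12, 0.067, −0.082 and 0.16 for replicates 1 to 4. With 4 libraries a group, these values cannot decide whether replicates were paired.

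Some small differences turned sign, and the cause was not tested. With TPM and total-count scaling these were uhrf1 (0.0844 and 0.04999), cdh1 (0.0823 and 0.0478), oclnb (0.164 and 0.129) and ep300b (0.124 and 0.0886). Leaving out each library in turn, oclnb ranged from −0.0251 to 0.0080 (without DMSO replicate 4), ep300b from −0.105 to 0.0096 (without TBBPA replicate 3) and ahr2 from −0.0174 (without DMSO replicate 2) to 0.0335, with −0.0066 without TBBPA replicate 4. Uhrf1 passed, as lower, without TBBPA replicate 4 (−0.12). The difference in assigned reads between the groups, TBBPA minus DMSO, ranged from −1264000 (without DMSO replicate 2) to 1728000 (without DMSO replicate 1), was −421000 without TBBPA replicate 1, and did not pass in any setting tried. Of the counts and medians of lists, families and gene classes, 738 recomputed values moved (a count by over 1.5 times, a median by more than the SD between replicates) and 7566 did not.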
